A study of Homo sapiens with 8 samples.

Results

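The miR-204-5p arrays of this series compared cells transfected with miR-204-5p with separate cells of the same line in a pair of carcinoma cell lines, SW1990 (pancreatic cancer) and MDA-MB-231 (breast cancer). They were chosen as the arrays whose titles name miR-204-5p, and they are 2 of the 8 arrays in the series. On each array, RNA of the transfected cells was labelled with Cy5 and RNA of the same line without transfection, called mock here, was labelled with Cy3. The other 6 arrays had the same layout and came from 3 further lines. PC3 (prostate cancer) received si-PIR-2 on one array and si-PIR-3 on another, both siRNAs against PIR. SK-MES-1 (lung squamous cell carcinoma) received miR-144-5p or else miR-144-3p, and PANC1 (pancreatic cancer) received miR-130-5p or else miR-130-3p. The labels name Lipofectamine RNAiMAX as the transfection reagent and give no time after transfection. Each transfection was hybridised once in each line, so that the 2 miR-204-5p arrays are replicates only across lines and p-values measure the spread between single arrays, no dye swap was made, and none of the 8 arrays held a control miRNA. The level of mature miR-204-5p was not analysed here. Neither SW1990 nor MDA-MB-231 received another transfection, so that miR-204-5p and these lines cannot be told apart in a comparison with the other arrays.

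miRNAs are short RNAs that guide Argonaute proteins to messenger RNAs, mostly through pairing of the seed, bases 2 to 8 counted from the 5′ end, with complementary sites in the 3′ untranslated region. Pairing usually lowers the level of the messenger RNA and its translation. miR-204-5p is encoded in an intron of TRPM3, is abundant in retinal pigment epithelium and other epithelia, and shares its seed with miR-211-5p, which is encoded in an intron of TRPM1. The mature sequences from RefSeq (GRCh38.p14) are shown with the seed in capitals, because the matches described further on were searched with this seed.
hsa-miR-204-5p: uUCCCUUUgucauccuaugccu
hsa-miR-211-5p: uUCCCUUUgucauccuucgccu
The first lies at chr9:70810031-70810052 on the minus strand and the second at chr15:31065095-31065116 on the minus strand. Both have 22 bases and they differ at 2 positions, 17 and 18, outside the seed. The 8-base site that pairs with the whole seed and has A opposite base 1 is AAAGGGAA.

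The description covers 20563 of the 43317 genes named on the array, those whose probe exceeded background clearly in 1 or both channels on each miR-204-5p array. The value of a gene is the log2 ratio of transfected to mock signal from the scanner software, for the brightest of its probes, and a log2 ratio of -1 is a fall to 50 percent of the mock. Both channels were above background on both arrays for 17367 of these genes. The median log2 ratio was 0.04 in SW1990 and 0.04 in MDA-MB-231, and on the other arrays it lay between 0.01 and 0.07. In mock cells of both lines all 8 epithelial markers and all 5 mesenchymal-like markers were above background. CDH1, which encodes E-cadherin, had a mock signal of 4934 in SW1990 and 46.4 in MDA-MB-231, and VIM, which encodes vimentin, had 74337 in SW1990 and 154246 in MDA-MB-231. The mesenchymal-like markers did not all follow VIM. CDH2 went the other way, with 719 in SW1990 and 49.7 in MDA-MB-231, and CD44 had 31831 and 35980. PGR and CD3E were not above background in the mock of either line, and ESR1 was above background in MDA-MB-231 alone, at a signal of 27.0. The leukocyte marker PTPRC and the endothelial markers PECAM1 and CDH5 had mock signals between 31.9 and 89.4, against a median of 332 over all genes in SW1990 and of 339 in MDA-MB-231.

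The 2 lines shared a set of genes with low ratios. The log2 ratio was at or below -1 in both lines for 123 genes, 0.598% of the genes described, among them AP1S3, AP1S2, SERP1, M6PR and MRPS17. In these cultures, fewer cells that express a gene and less RNA per cell cannot be told apart. The 123 genes were 38.3% of the 321 genes at or below -1 in SW1990 and 37.3% of the 330 genes in MDA-MB-231. Among the 12 pairs of the other arrays that came from different cell lines, 25 to 98 genes were at or below -1 on both arrays, with a median of 34. The log2 ratio was at or above 1 in both lines for 122 genes, 0.593% of those described, which were 18.8% of 649 genes in SW1990 and 23.3% of 523 in MDA-MB-231. The 12 other pairs shared 45 to 118 such genes, and the 3 pairs of arrays of the same line shared 96 to 157. With both channels measured on both arrays, the miR-204-5p pair shared 30 higher genes, inside the 1 to 34 of the 12 other pairs, and 110 lower genes against 12 to 75. The lower and higher genes were not equally well measured. Both channels were above background on both arrays for 110 of the 123 lower genes and for 30 of the 122 higher genes. The median mock signal in SW1990 was 594 for the lower genes and 10.5 for the higher genes. With normexp background correction and loess normalization, 39 of the 123 and 9 of the 122 were still past 1 in both lines. Over all genes described, the Pearson correlation of the log2 ratios of SW1990 and MDA-MB-231 was 0.45, and it was 0.59 over the 17367 genes with both channels measured. Among the 12 other pairs it was 0.12 to 0.22, and 0.10 to 0.26 with both channels measured. Among the 3 pairs of arrays of the same line it was 0.21 to 0.54, and 0.17 to 0.69 with both channels measured. The miR-204-5p pair was therefore not the highest, because the 2 miR-144 arrays in SK-MES-1 had 0.54 and 0.69. These values run over genes, and genes cannot be counted as independent replicates.

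**Figure D1:**
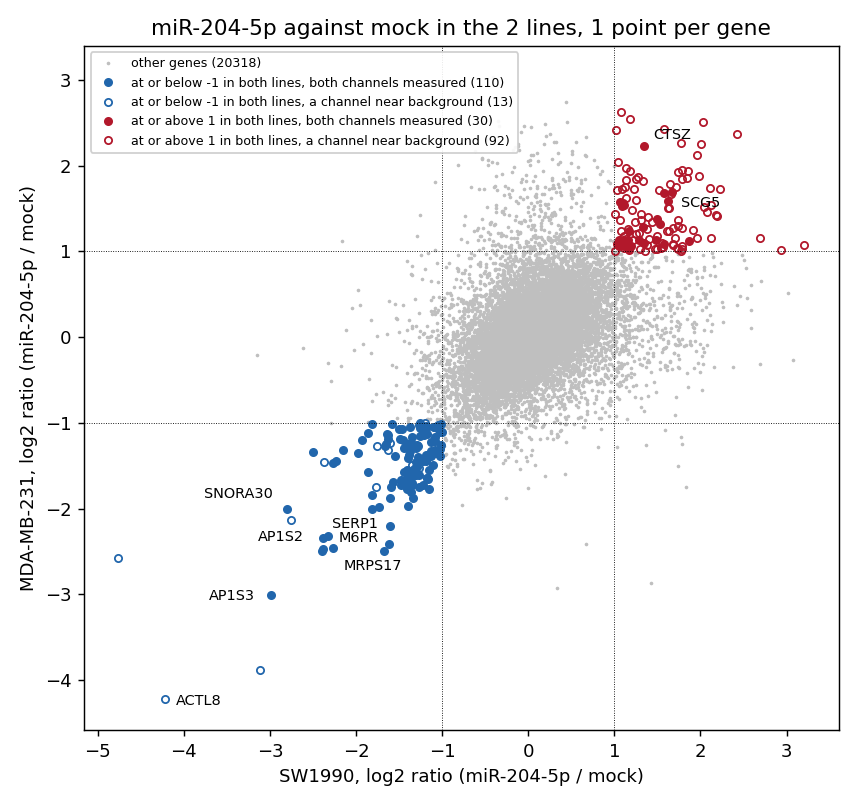
Log2 ratio of miR-204-5p to mock in SW1990 (x axis) and MDA-MB-231 (y axis), 1 point per gene for 20563 genes; blue and red points are at or past 1 in size in both lines, filled where both channels were above background on both arrays. The 110 filled blue points reach -2.99 and -3.0 (AP1S3), while 92 of the 122 red points are open.

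To set the shared genes against other transfections, both miR-204-5p values were set beside the 6 other arrays. Both values lay below all 6 for 94 of the 123 genes lower in both lines, where 5.81% of all genes described did so, and both lay above all 6 for 61 of the 122 genes higher in both lines, where 6.36% of all genes did so. The 123 and 122 genes were chosen for extreme values on these same 2 arrays, which by itself raises these shares, so they are a description. Some of the 123 were as low elsewhere. ACTL8 (at its brightest probe), C1QTNF5, SMAD1-AS1, ENST00000450618 and lnc-TPCN2-3 were at or below -1 on all 8 arrays. The mean of the 6 other arrays was at or below -0.5 for 27 of the 123 genes, where 590 of all 20563 genes were. For the higher genes, that mean was at or above 0.5 for 45 of the 122 genes, where 1103 of all 20563 were. Both sets thus held a larger share of genes that moved the same way with other transfections than all genes did. In the fit of the 2 miR-204-5p arrays against the 6 others with limma, 10 genes were called lower, 0.0486% of those tested, and 1 was called higher, 0.00486%, at an adjusted p of 0.05 or less. At an unadjusted p under 0.05, 786 genes were lower and 776 higher. The calls depended on which arrays entered the fit. Without the SW1990 array or without the MDA-MB-231 array, 0 genes were called lower and 0 higher, with 476 and 434 lower and 480 and 506 higher at an unadjusted p under 0.05. Without the PC3 arrays and without the SK-MES-1 arrays the count was 0 in both directions, with 846 and 831 genes lower and 833 and 868 higher at an unadjusted p under 0.05, and without the PANC1 arrays it was 4 lower and 0 higher, with 1099 lower and 1038 higher. The 10 genes called lower were AP1S3, AP1S2, SERP1, M6PR, MRPS17, MRPS34, SNORA67, SNORA51, DDX18 and GCNT2.

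The clathrin adaptor AP-1 and its cargo included several of the genes called lower. AP-1 forms coats on vesicles that move between the trans-Golgi network and endosomes, and M6PR, the cation-dependent mannose 6-phosphate receptor, travels in them with newly made lysosomal enzymes. AP1S3, a sigma subunit of AP-1 (probe at chr2:224620139-224620198, hg19), had a log2 ratio of -2.99 in SW1990 and -3.0 in MDA-MB-231, a mock signal 7.95 and 8.02 times the transfected signal. On the other 6 arrays it lay between -0.44 and 0.30 with a median of -0.16, so that the groups did not overlap, and it fell against them (limma difference -2.88, SE 0.23, adjusted p = 0.00741). Its other 2 probes gave -3.0 and -2.04 in SW1990 and -3.41 and -2.82 in MDA-MB-231. AP1S2, another sigma subunit (probe at chrX:15844579-15844638), was at -2.38 in SW1990 and -2.47 in MDA-MB-231, against -0.34 to 0.48 with a median of 0.07 on the other arrays (limma difference -2.48, SE 0.25, adjusted p = 0.0130). Another probe of AP1S2 gave -1.81 and -2.41, and the last one gave -0.48 in MDA-MB-231 and had its mock at background in SW1990. With the probes averaged, AP1S2 was no longer called (limma difference -1.41, adjusted p = 0.133). M6PR was at -2.33 in SW1990 and -2.32 in MDA-MB-231, and between -0.35 and 0.46 with a median of 0.15 elsewhere (limma difference -2.44, SE 0.22, adjusted p = 0.00855), and after normexp and loess its difference was -1.42 (limma adjusted p = 0.0404). The endosomal GTPase RAB22A was at -1.61 and -2.2 and had a lowest value of -1.34 on the other arrays, with si-PIR-2 in PC3, and its difference of -1.80 did not pass the test (limma adjusted p = 0.324). CHMP3, a subunit of the ESCRT-III complex that closes membrane necks at endosomes, was at -1.73 and -1.98, while the other arrays ran from -1.39 to -0.12 with a median of -0.42 (limma adjusted p = 0.265). Of its other 2 probes, one gave -1.54 and -1.80 and the other -0.39 and -0.92. These genes did not stand for the whole sorting machinery. Among 40 measured genes of adaptors and endosomal sorting, 4 were at or below -1 in both lines, beside 0.598% of all genes. Of the 40, 3 were called lower, beside 0.0486% of all genes, and none was called higher. Both values lay below all 6 other arrays for 6 of the 40 and above all 6 for 3, beside 5.81% and 6.36% of all genes. The list was chosen with earlier results of these data known. Its median was 0.03 in SW1990 (-0.01 with each array centred on its median) and 0.08 in MDA-MB-231.

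The endoplasmic reticulum and mitochondrial ribosome each held single genes with low ratios. SERP1 encodes a small protein of the endoplasmic reticulum membrane that associates with the translocon. It was at -2.38 in SW1990 and -2.35 in MDA-MB-231, and the other arrays ran from -0.15 to 0.69 with a median of 0.18 (limma difference -2.57, SE 0.22, adjusted p = 0.00855). MRPS17 and MRPS34 encode proteins of the small subunit of the mitochondrial ribosome. MRPS17 was at -2.26 in SW1990 and -2.46 in MDA-MB-231, against -0.32 to 0.61 with a median of -0.09 elsewhere (limma difference -2.37, SE 0.26, adjusted p = 0.0186). MRPS34 was at -1.81 and -2.01, and the 6 other arrays were close together between -0.33 and -0.01 with a median of -0.20 (limma difference -1.73, SE 0.18, adjusted p = 0.0164). Mitochondrial ribosomal protein genes as a family did not follow. Of 77 measured, these 2 were at or below -1 in both lines, beside 0.598% of all genes. They were also the 2 called lower, beside 0.0486% of all genes. Both values lay below all 6 other arrays for 9 of the 77 and above all 6 for 7, beside 5.81% and 6.36% of all genes. The family medians were 0.01 in SW1990 and -0.02 in MDA-MB-231. TUSC2, a candidate tumour suppressor, was at -1.82 and -1.84 where the other arrays lay between -0.04 and 1.20 with a median of 0.66, and its difference of -2.45 had an adjusted p of 0.0568 with limma. DDX18, a nucleolar RNA helicase, was called lower at -0.82 in SW1990 and -1.08 in MDA-MB-231, and the other arrays all lay above 0, from 0.30 to 0.52 with a median of 0.34 (limma difference -1.34, SE 0.17, adjusted p = 0.0416). GCNT2, a glycosyltransferase that branches poly-N-acetyllactosamine chains, was at -0.97 and -1.37 against 0.11 to 0.53 with a median of 0.29 (limma difference -1.48, SE 0.19, adjusted p = 0.0421). After normexp and loess GCNT2 was no longer called (limma difference -0.46, adjusted p = 0.164).

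**Figure D2:**
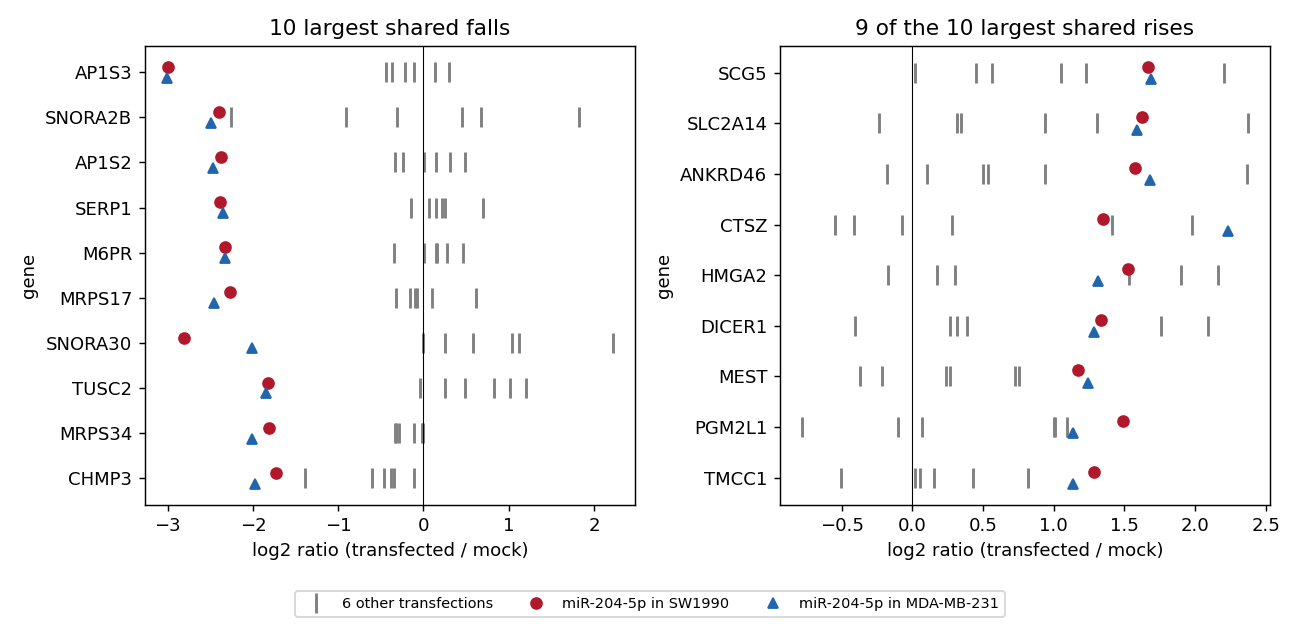
Log2 ratio of transfected to mock (x axis) for the 10 genes with the lowest ratio (left) and 9 of the 10 with the highest ratio (right) in the weaker line, among genes with both channels measured; red circles are SW1990, blue triangles MDA-MB-231 and grey ticks the 6 other arrays. On the left the miR-204-5p points lie left of all ticks for the 10 genes, with SNORA2B nearest to its lowest tick at -2.25, and on the right ticks lie beyond the points for SCG5, SLC2A14, ANKRD46, HMGA2 and DICER1.

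Small nucleolar RNAs of the H/ACA class were among the genes lower in both lines. H/ACA snoRNAs (gene names SNORA) guide pseudouridylation of ribosomal RNA with the proteins dyskerin, NHP2, NOP10 and GAR1, C/D snoRNAs (SNORD) guide 2′-O-methylation with other proteins, and SCARNA genes encode the related guide RNAs of Cajal bodies. These families were picked after their values were seen, so that the counts are a description without a test. Of 95 SNORA genes measured, 8 were at or below -1 in both lines, beside 0.598% of all genes, and 50 lay below all 6 other arrays in both lines, beside 5.81% of all genes. Of 20 SCARNA genes, 4 were at or below -1 in both lines and 15 lay below all 6. Of 108 SNORD genes, 0 were at or below -1 in both lines and 24 lay below all 6. The median log2 ratio of SNORA genes was -0.27 in SW1990 and -0.19 in MDA-MB-231, and between 0.18 and 0.79 on the other arrays. That of SCARNA genes was -0.74 and -0.57, against 0.07 to 0.78, and that of SNORD genes was 0.01 and -0.03, against 0.05 to 0.78.
SNORA30 was at -2.80 in SW1990 and -2.01 in MDA-MB-231 and between 0.00 and 2.22 with a median of 0.80 elsewhere, and its difference of -3.27 had a limma adjusted p of 0.0861. SNORA67 was at -2.26 and -1.47, and between 0.12 and 0.96 with a median of 0.73 elsewhere (limma difference -2.46, SE 0.30, adjusted p = 0.0378). SNORA51 was at -1.64 and -1.13, and between 0.18 and 0.88 with a median of 0.46 elsewhere (limma difference -1.87, SE 0.24, adjusted p = 0.0416). After normexp and loess SNORA51 was no longer called (limma difference -0.92, adjusted p = 0.0615), and without a filter on dim probes SNORA67 was not (limma adjusted p = 0.0684). For these 3 the miR-204-5p arrays stood apart from every other array. SNORA2B was at -2.40 and -2.49 but also at -2.25 with miR-144-5p in SK-MES-1 and at 1.82 with miR-130-5p in PANC1, and it did not pass the test (limma adjusted p = 0.544). The remaining members past -1 in both lines were SNORA38, SNORA44, SNORA48, SNORA79, SCARNA14, SCARNA20, SCARNA22 and SCARNA23, with weaker-line values from -1.01 to -1.36. A second probe of SCARNA23 gave -0.60 in SW1990 and -0.13 in MDA-MB-231, and was at -1.16 with si-PIR-3 in PC3. The level of change depended on the scaling. After normexp background correction and loess normalization the SNORA medians were -0.12 in SW1990 and -0.08 in MDA-MB-231 and 2 of the 95 genes were at or below -1 in both lines, against 1 of the 20 SCARNA genes. Of the 6 measured genes for H/ACA proteins and their assembly, none was past 1 in both lines, and their medians were -0.06 in SW1990 and -0.10 in MDA-MB-231. Several snoRNAs have near-identical copies or lie within introns of host genes, and whether the probes read the mature RNA or a host transcript was not tested.

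**Figure D3:**
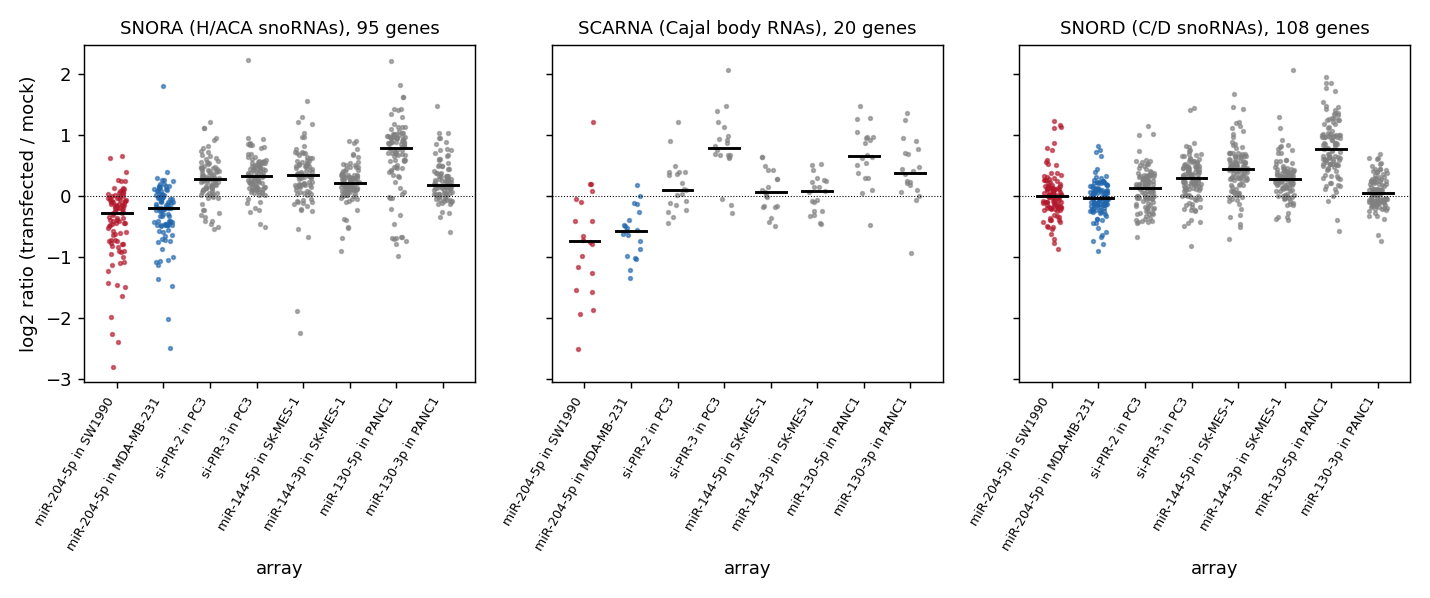
Log2 ratio of transfected to mock (y axis) for each SNORA (95 genes), SCARNA (20) and SNORD gene (108) on the 8 arrays (x axis), with black bars at the median; red is miR-204-5p in SW1990, blue miR-204-5p in MDA-MB-231 and grey the other transfections. The SNORA and SCARNA medians are below 0 on the miR-204-5p arrays (-0.27 and -0.19, -0.74 and -0.57) and above 0 on the other 6.

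Seed matches to miR-204-5p were looked for in the 60-base array probes, the only transcript sequence used here, on the transcript strand. The motifs were AAAGGGA, which pairs with bases 2 to 8, and AAGGGAA, which pairs with bases 2 to 7 and has A opposite base 1. They overlap in the 8-mer AAAGGGAA, and the other strand was not searched. Either motif was present in the probe of 208 of the 20563 genes, or 1.01%, and in 5 of the 123 genes lower in both lines, or 4.07%. It was present in 1 of the 122 genes higher in both lines, in 1 of 109 genes lower in SW1990 alone and in 1 of 87 lower in MDA-MB-231 alone. Taken array by array, 2.80% of the 321 genes at or below -1 in SW1990 and 4.24% of the 330 in MDA-MB-231 had a match, and 0.754% to 1.95% on the other arrays. Of the 123 genes, 0 had a match to the seed of miR-144-5p and 2 to that of miR-144-3p, and those to miR-130a-5p, miR-130b-5p and miR-130b-3p in 2, 3 and 1, where the labels do not say which miR-130 was used. Among the 321 genes at or below -1 in SW1990, matches to miR-130a-5p and miR-130b-5p were more common than those to miR-204-5p. They were at 3.43% and 3.74% against 2.80%, beside 1.5%, 1.45% and 1.01% of all genes. The 4 genes with a match, both channels measured and a probe mapped without a gap were MRPS17, RAB40B, GUCA1B and LFNG. The 30 bases around each site are shown on the transcript strand with the site in capitals.
MRPS17: aagaaggatctAAAGGGAAaaactgacatg
RAB40B: cttgttttcgatgtgtgtttgtAAAGGGAA
GUCA1B: aaactagattaAAAGGGAgtctctctggtt
LFNG: aagcgaatgatAAGGGAAaagttctcaggg
In hg19, the build of the array annotation, these windows lie at chr7:56022883-56022912 (plus strand), chr17:80615516-80615545 (minus), chr6:42151212-42151241 (minus) and chr7:2567971-2568000 (plus), and whether they are in a coding or untranslated part was not looked up here. RAB40B, which encodes a Rab-like GTPase, was at -1.30 in SW1990 and -1.51 in MDA-MB-231. GUCA1B, a guanylate cyclase activator of photoreceptors, was at -1.29 and -1.25. LFNG, a glycosyltransferase that modifies Notch, was at -1.13 and -1.23. The fifth gene, UNC5B, a netrin receptor, was at -1.63 and -1.32 with a channel near background.
Across all genes with both channels measured, the median ratio was lower with a match than without. The groups with a match overlap, because the 8-mer holds both motifs, and genes with the shorter match alone were not taken apart. The median was 0.02 in SW1990 and 0.02 in MDA-MB-231 over 17195 genes without a match. It was -0.17 and -0.21 over 172 genes with either motif, -0.23 and -0.29 over 101 genes with AAAGGGA, and -0.36 and -0.31 over 47 genes with the 8-mer. On the other 6 arrays the median of the genes with the 8-mer was between -0.16 and 0.02. A probe covers a small part of a transcript, so a gene without a match in the probe may have a site elsewhere.

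**Figure D4:**
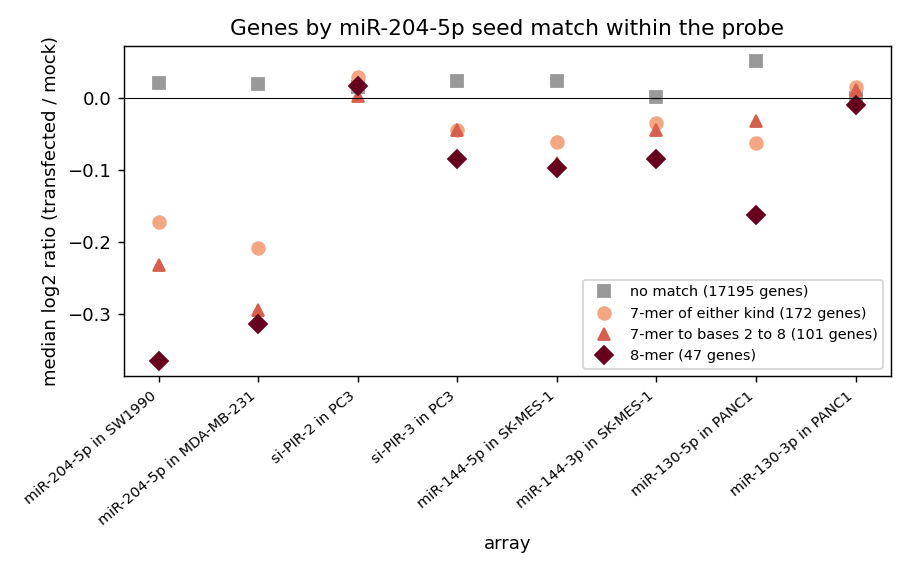
Median log2 ratio of transfected to mock (y axis) on each array (x axis) for genes grouped by the miR-204-5p seed match in their probe, among genes with both channels measured. The 8-mer group is at -0.36 in SW1990 and -0.31 in MDA-MB-231, its lowest medians among the 8 arrays, and the group without a match is near 0 on every array.

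The genes higher in both lines were led by SCG5, SLC2A14, ANKRD46 and CTSZ, and none of the 9 described here was called by limma. SCG5, a chaperone of the prohormone convertase PC2, was at 1.66 in SW1990 and 1.69 in MDA-MB-231, and on the other arrays it ran from 0.02 to 2.20 with a median of 0.81. The glucose transporter gene SLC2A14 was at 1.62 and 1.59, against -0.24 to 2.37, and ANKRD46 was at 1.57 and 1.68, against -0.18 to 2.36. The highest of the other arrays exceeded both miR-204-5p values for these 3 genes. CTSZ, a lysosomal cysteine protease, was at 1.35 in SW1990 and 2.23 in MDA-MB-231 and was also high with miR-144-5p (1.98) and, at 1.42, with the 3p strand in SK-MES-1, and its second probe gave 0.39 and 0.15. HMGA2, an oncofetal chromatin protein, was at 1.53 and 1.32, with 2.16 and 1.53 on the si-PIR arrays and 1.90 with miR-130-3p, and its other probes gave 0.12 to 0.61. DICER1, which encodes the nuclease that cuts miRNA precursors, was at 1.33 and 1.29, with 2.09 and 1.76 on the si-PIR arrays. The imprinted gene MEST was at 1.17 and 1.24, where the other arrays ran from -0.37 to 0.75. PGM2L1, which makes glucose 1,6-bisphosphate, was at 1.49 and 1.14 against -0.78 to 1.1. TMCC1, an endoplasmic reticulum membrane protein, was at 1.28 and 1.13 against -0.50 to 0.82. The last 3 lay above all other arrays, and the limma adjusted p of the 9 genes ranged from 0.431 (TMCC1) to 0.954 (HMGA2). The 1 gene called higher, DEFB103B (a beta-defensin), was at 1.79 and 1.27 (limma adjusted p = 0.0325), but its ratio was listed as exactly 0 on the other 6 arrays, where neither channel was above background, so that its call rests on values that were not measured.

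Where only 1 channel was above background, the change is a bound. ACTL8, a cancer-testis gene, was at least 1.51-fold lower in SW1990 and at least 1.6-fold lower in MDA-MB-231 (scanner log2 ratios -4.22 and -4.22), but it was between -5.36 and -3.83 on the other arrays. The fall was not seen at a second probe of ACTL8, which gave 1.27 in SW1990 and 0.11 in MDA-MB-231, both with the mock at background. That probe lay between -0.24 and 1.66 on the other arrays. SMAD1-AS1 was at least 1.27-fold and 1.30-fold lower, and between -4.74 and -3.0 elsewhere. TPPP, a tubulin-binding protein, was at least 1.19-fold lower in SW1990 and 1.20-fold lower in MDA-MB-231, with scanner ratios of -2.75 and -2.13 that lay below all other arrays (lowest -1.24). Among higher genes, TRIM77 was at least 1.02-fold and 1.08-fold higher, FLJ42022 at least 1.01-fold and 1.05-fold, and ENST00000566562 at least 1.04-fold and 1.05-fold, although their scanner ratios were 1.96 to 2.51. None of these 6 genes passed the test (limma adjusted p from 0.124 to 0.992).

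Reported miR-204-5p targets had lower ratios than most genes. Of 34 genes, 30 were measured, 21 of them were below 0 in both lines, where 5907 of all 20563 genes were, and the median was -0.46 in SW1990 and -0.55 in MDA-MB-231, beside 0.04 in each line over all genes. On the other arrays the list median lay between -0.01 and 0.14. After normexp and loess it was -0.18 in SW1990 and -0.29 in MDA-MB-231. AP1S2, M6PR and RAB22A were lower in both lines and HMGA2 higher, 2 of its members were called lower, where 0.0486% of all genes were, and 12 lay below all 6 other arrays, where 5.81% of all genes did. These members were assembled from knowledge of the miRNA with results of these arrays known, so the list is not independent of them. EZR, which links actin to the plasma membrane, was at -0.48 in SW1990 and -0.57 in MDA-MB-231, and TMOD3, which caps actin filaments, was at -0.73 and -0.75, with -0.10 and -0.22 at a second probe. In the list of ezrin-radixin-moesin and cortical actin genes, 0 of 20 were past 1 in both lines and the medians were -0.08 and -0.11.

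Genes of mitosis and DNA replication had slightly lower ratios on both arrays. Of 41 measured, 38 were below 0 in both lines, where 5907 of all 20563 genes were, and the median was -0.40 in SW1990 and -0.36 in MDA-MB-231, while the other arrays ranged from -0.60, with miR-130-5p in PANC1, to 0.11. CDCA8, a subunit of the chromosomal passenger complex, was at -1.08 and -1.31 and between -0.36 and 0.21 elsewhere (limma difference -1.24, SE 0.20, adjusted p = 0.0805). RRM2, a ribonucleotide reductase subunit, was at -0.47 and -1.35 and also at -1.31 with miR-130-5p. CENPA (-1.28 and -1.40), CKAP2L (-1.23 and -1.11) and RACGAP1 (-1.02 and -1.02), which act in chromosome segregation and cytokinesis, were also among the 123 genes, and were picked out here after their values were seen. No gene of the list was called, and 4 of 41 had an unadjusted p under 0.05, all lower, where 786 of all 20563 genes were lower and 776 higher at that level.

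In the BCL2 family the medians were -0.12 and 0.07. Of 15 genes, 1 was at or below -1 in both lines, beside 0.598% of all genes. This gene was BCL2L2, which encodes the survival protein BCL-w, at -1.33 in SW1990 and -1.61 in MDA-MB-231, against -0.29 to 0.39 with a median of -0.03 elsewhere (limma difference -1.49, SE 0.22, adjusted p = 0.0700). BCL2 itself was at -0.55 in SW1990, where its mock signal was 33.7, and at -1.33 in MDA-MB-231, where it was 355, and 2 of the other arrays listed it at 0. A second probe gave 0.41 and -1.0. Among 14 measured genes of the small RNA machinery, DICER1 and TNRC6A, a GW182 protein that binds Argonaute, were at or above 1 in both lines. Over all genes, 0.593% were. TNRC6A was at 1.1 and 1.12, and on the other arrays between 0.15 and 1.04. The median of this list was 0.17 in SW1990 and 0.22 in MDA-MB-231, and 0.06 to 0.33 elsewhere.

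Among TGF-beta and SMAD genes, 1 of 30 was at or below -1 and 1 at or above 1 in both lines. Over all genes, 0.598% and 0.593% were. ID1, an inhibitor of basic helix-loop-helix factors, was at -1.38 and -1.37 but also at -1.43 with si-PIR-3, and the activin receptor ACVR2B was at 1.17 and 1.01 but at 1.53 with miR-130-3p. Of 20 measured genes of epithelial-mesenchymal transition, 0 were past 1 in both lines. CLDN1, a tight junction protein, was at 0.73 and 1.66 and SNAI1, a repressor of CDH1, was at -0.09 and -1.31. In the unfolded protein response, SERP1 fell as described and DNAJB9, a chaperone of the endoplasmic reticulum, was at 1.05 and 1.08, above the other arrays, which reached 1.0, while the medians of the 25 genes were -0.13 and 0.14. The 2 lines differed in median for interferon-stimulated genes, at -0.57 in SW1990 and -0.07 in MDA-MB-231 over 35 genes, a difference that was not tested, while the medians of the other arrays ran from -0.54 to 0.41. HERC5, a ligase for the ubiquitin-like protein ISG15, was at -1.86 and -1.12, and at -2.2 with miR-130-5p, and IFI44 was at -0.85 and -0.85 and at -2.94 with si-PIR-2. For NF-kB targets the medians were -0.20 and 0.10 over 20 genes, and 0.08 to 0.81 on the other arrays, so that only the SW1990 median lay below them all. Both values lay below all 6 other arrays for 5 of the 20, beside 5.81% of all genes. With limma, 5 of the 20 were lower at an unadjusted p under 0.05 and 0 higher, where 786 of all 20563 genes were lower. CXCL3, a neutrophil chemokine, was at -0.75 and -1.42 and the cytokine gene IL6 was at -1.41 and -0.42, where the other arrays reached 4.19 and 1.73. Cholesterol synthesis genes had medians of 0.16 and 0.21 over 24 genes, with HMGCS1 at 0.83 and 1.26 and INSIG1 at 0.96 and 0.92, both exceeded on other arrays (1.8 and 2.0). Among p53 targets (20 genes, medians -0.03 and 0.06), MDM2 was at -0.67 and -1.21 (at other probes -0.04 to -0.99) and TNFRSF10B at 1.02 and 0.44. Extracellular matrix genes (29 genes, medians 0.15 and 0.07) included COL1A1 at 0.84 and 1.30 and COL4A1 at -0.69 and -1.04, below all other arrays, whose lowest value was 0.15 (limma adjusted p = 0.189). Ribosomal protein genes stayed within a narrow range. None of 24 was past 1 on either array, the median was -0.01 in both lines, and the largest mean ratios were those of RPS18 (0.37 and 0.16) and RPL23 (0.37 and 0.10), while the other 2 probes of RPS18 lay between -0.21 and -0.02. Apart from AP1S2, AP1S3, M6PR and SERP1, no gene of these lists was called by limma.

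**Figure D5:**
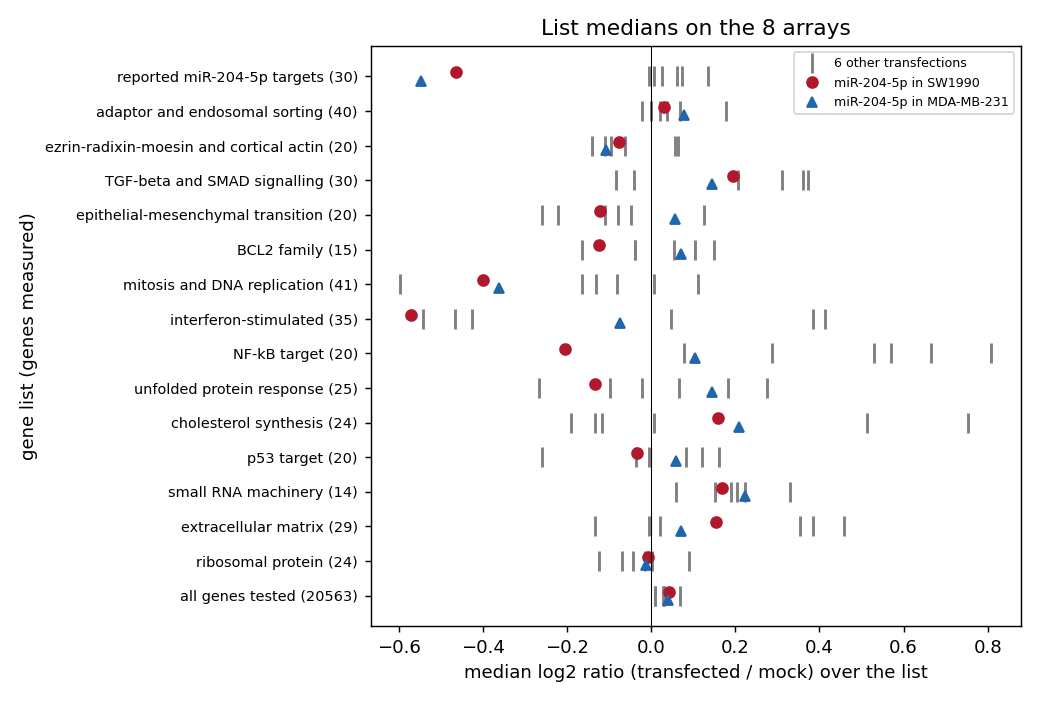
Median log2 ratio of transfected to mock (x axis) over each gene list (y axis, number of genes measured in brackets) on the 8 arrays; red circles are miR-204-5p in SW1990, blue triangles miR-204-5p in MDA-MB-231 and grey ticks the other 6. The median of the reported targets is lower on the miR-204-5p arrays (-0.46 and -0.55) than on the other 6, while most other lists lie among the ticks.

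Genes higher in 1 line alone outnumbered those higher in both and were mostly dim. Genes lower in either line alone were fewer, line by line, than those lower in both. In SW1990 the log2 ratio was at or past 1 in size, with less than 0.5 in the other line, for 109 lower genes (0.53%) and 339 higher genes (1.65%), of which 76 and 44 had both channels measured. In MDA-MB-231 there were 87 lower (0.423%) and 281 higher (1.37%), with 59 and 31 measured in both channels. Because each line had 1 array, differences between the lines were not tested, and none of these genes was called by limma. Of the 448 genes changed in SW1990 alone, 19 were still in that group after normexp and loess, as were 15 of the 368 in MDA-MB-231 alone. The genes named next are those with the largest ratios among genes with both channels measured on both arrays. After normexp and loess, ENST00000367272, THC2642375, BAGE4, SH2D3A and RAB15 were still past 1 in their own line, and the rest of the named genes were not. In SW1990 the lowest ratios were those of ENST00000367272 (-3.16, and -0.21 in MDA-MB-231, with -0.74 and -0.45 at a second probe), the caveolar gene SDPR, now CAVIN2 (-2.32 and -0.30), the phospholipid scramblase family gene PLSCR4 (-2.11 and 0.08) and SRGN, the granule proteoglycan serglycin (-2.02 and -0.15). Their mock levels differed between the lines. SRGN had a mock signal of 166 in SW1990 and 5930 in MDA-MB-231, SDPR had 139 and 598, and ENST00000367272 had 414 and 58.9. The probes of ENST00000367272 lie on chromosome Y, and its ratio in MDA-MB-231 rests on that dim signal. The highest ratios in SW1990 alone were those of THC2642375 (1.99 and 0.44), the inflammasome gene NLRP3 (1.49 and 0.04), FAM13A-AS1 (1.41 and 0.32) and KAL1, now ANOS1, an extracellular matrix protein (1.37 and 0.10), with mock signals of 39.2 to 125 in SW1990 and 233 to 628 in MDA-MB-231. A second probe of FAM13A-AS1 gave 1.25 and 0.63, past the limit of 0.5 in MDA-MB-231, and one of NLRP3 gave 1.11 and -0.03. Both had their mock at background in SW1990. In MDA-MB-231 the lowest ratios were those of BAGE4 (-2.93, and 0.34 in SW1990), the von Willebrand factor protease gene ADAMTS13 (-1.87 and -0.26), lnc-ZBTB25-2 (-1.62 and 0.20) and PLAC8L1 (-1.55 and -0.44). ADAMTS13 lay between -1.53 and -0.24 on the other arrays. BAGE4 had a mock signal of 40.9 in SW1990 and 664 in MDA-MB-231. The genes lnc-ZBTB25-2 and PLAC8L1 were dim, with mock signals of 49.9 and 43.2 in MDA-MB-231. After normexp and loess they were at -0.20 and -0.11 in MDA-MB-231. The highest ratios in that line alone were those of the adaptor gene SH2D3A (1.55 and 0.23), LTB, a member of the tumour necrosis factor family (1.49 and 0.05), the endosomal GTPase gene RAB15 (1.46 and 0.29) and the kinesin gene KIF17 (1.41 and 0.13). SH2D3A and RAB15 were the brighter of these, with mock signals of 1897 and 1185 in MDA-MB-231. Several genes named for 1 line alone also moved on other arrays. THC2642375 reached 3.17 with si-PIR-2, NLRP3 1.6 with si-PIR-3 and LTB 1.84 with miR-130-3p, each above its miR-204-5p value. PLSCR4 was at -1.71 with si-PIR-2, SRGN at -1.44 with miR-130-5p and SDPR at -1.22 with miR-144-5p. KAL1 also passed 1 with si-PIR-2. ENST00000367272, FAM13A-AS1, BAGE4, lnc-ZBTB25-2, PLAC8L1, SH2D3A, RAB15 and KIF17 did not pass 1 in the same direction on any other array. Beyond these, 2087 genes were above background in SW1990 and not in MDA-MB-231, and 1758 the other way, and were not compared.

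Values close to the limit of 1 show how sharp the grouping is. SLC37A3 was just inside on the low side at -1.005 in SW1990 and -1.1 in MDA-MB-231, and ESCO2 just outside at -0.997 and -1.02. On the high side ACVR2B was just inside at 1.17 and 1.01 and EFCAB14 just outside at 0.997 and 1.11.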

How the data were processed

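The authors hybridised total RNA to Agilent 2-colour human arrays, 1 array per transfection, with mock in Cy3 and transfected cells in Cy5. They deposited the scanner output of Agilent Feature Extraction 11.5.1.1, which holds log10 ratios of Cy5 to Cy3 and processed intensity per channel, background-subtracted and dye-normalized by that software; a deposited value table held the same log10 ratios for every spot, control spots included (largest difference 0, column medians 0). All 8 arrays were on 1 slide and 1 scan. Control spots and the 126 to 173 spots per array marked as outliers by the software were left out, and 0 spots were saturated. Log10 ratios were converted to log2, spots of a probe averaged and the brightest passing probe kept per gene (4677 genes had several). Well above background were 41.4% to 46.4% of probes in Cy3 and 49.8% to 54.6% in Cy5; the number of arrays limits the precision.

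limma 3.58.1 (R 4.3.3) fitted the 2 miR-204-5p arrays against the 6 others, with cell line as a random block (consensus correlation 0.09) and Benjamini-Hochberg adjustment over 20563 genes; p-values are two-sided. Replicates are different cell lines. The code was tested on simulated data, and alternatives changed the normalization, filter, probe rule, limit, block and arrays. Bounds compare channel levels after normexp (offset 50), loess and Aquantile: the bright channel against the higher of the dim signal and the lowest signal above background. Named genes were the 10 largest falls and rises by the weaker line, the 4 largest per direction in 1 line alone, 3 bounds per direction, the genes called, and list members at or past 1 in both lines or otherwise the 2 with the largest mean change. Of these, 1 of the 10 rises is not reported here, and some markers are given only as counts. Members and lists were chosen with earlier results of these data known. Probe strand matched the RefSeq gene strand for 99.4% of 10715 genes.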

Additional observations from a re-analysis of the deposited data

Results flagged for a closer look

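EDN2, which encodes the vasoactive peptide endothelin 2, moved in opposite directions in the lines, at -2.17 in SW1990 and 1.12 in MDA-MB-231, and was the 1 gene past 1 in size with opposite signs that had both channels measured, of 13 with opposite signs in all. Its mock signal was 68.2 in SW1990 and 599 in MDA-MB-231, and on the other arrays it ran from 0.00 to 3.08. The difference between the lines was not tested.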

How the results depend on the processing

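Median centring, the deposited value table and averaging over probes left the 6 counts within 1.5 times, as did leaving out the cell line block for the calls (15 lower, 1 higher). With normexp and loess, 39 genes were lower in both lines (all 39 among the 123), 9 higher, 28 changed in SW1990 alone and 21 in MDA-MB-231 alone, while 39 were called lower and 5 higher; 8 of the 10 lower calls were shared, without GCNT2 and SNORA51. Without a filter on dim probes the counts were 334, 277, 2068 and 1939, with 60 called lower and 17 higher. With both channels required, 30 genes were higher in both lines, 120 changed in SW1990 alone and 90 in MDA-MB-231 alone, and 32 were called lower and 2 higher. A limit of 1.5 gave 22 lower, 25 higher, 143 in SW1990 alone and 115 in MDA-MB-231 alone, and a limit of 0.5 gave 645 lower and 851 higher in both lines. A filter on all 8 arrays gave 16 called lower and 0 higher (709 at an unadjusted p under 0.05). Against 0 without the other arrays, 0 were called in either direction, with 1658 lower and 2267 higher at an unadjusted p under 0.05. Leaving out either miR-204-5p array gave 0 calls in both directions; the lone array is then assumed to vary like the others. Background without PC3 or without SK-MES-1 gave 0 and 0, and without PANC1 4 lower and 0 higher. Causes were not tested. An analysis paired by cell line was not possible, because no line received both miR-204-5p and another transfection.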
